A study of Mus musculus with 8 samples.

Results

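The 10 genes described here encode proteins of the skeletal muscle triad, the junction at which depolarisation of the muscle membrane is turned into calcium release: Ryr1, Cacna1s, Cacnb1, Cacng1, Jph1, Jph2, Trdn, Casq1, Fkbp1a and Sln. They were chosen by name, with earlier results of these data known. Every non-control probe of the array whose design gene name is one of these symbols was taken, which gave 20 of the 41174 non-control probes. A probe was tested if its spots were well above background on 4 arrays or more out of 8. Of the 20 probes 18 met this, and all 10 genes were represented among the 16016 genes tested.

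The tissue was tibialis anterior, the fast-twitch muscle beside the shin, and the 8 mice were C57BL/6 males at 8 weeks of age. The 4 control mice had the genotype Prep1f/+, which the design text of the study calls Prep1 flox, and the 4 others were Prep1deltaSM mice, in which Prep1 was ablated in skeletal muscle. Prep1 is a homeodomain transcription factor encoded by Pknox1; the Cre driver of the ablation, and whether the control mice carried it, are not given in the sources used here. Each mouse gave 1 array, hybridised with Cy3-labelled cRNA in a single colour, and replicate numbers only name the mice. The study asks what loss of Prep1 changes in muscle RNA.

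In a skeletal fibre the triad is the contact of a transverse tubule with terminal sacs of the sarcoplasmic reticulum on either side. The L-type calcium channel of the tubule (Cacna1s with the auxiliary subunits Cacnb1 and Cacng1) senses voltage and opens the release channel of the reticulum, Ryr1, by direct coupling, and the junctophilins Jph1 and Jph2 hold both membranes together. Triadin (Trdn) links the release channel to the luminal calcium buffer calsequestrin (Casq1). The immunophilin FKBP12 (Fkbp1a) binds the release channel and steadies its closed state, and sarcolipin (Sln) is a small inhibitor of the pump that returns calcium to the store.

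Each probe is a 60-base oligonucleotide that reads 1 short stretch of a transcript, and in several of these genes the genotype difference varied between probes. Such variation was common on the array. Within-array ratios of 2 probes of 1 gene did not overlap between genotypes in 4 of 12 member pairs, against 16.1% of all such pairs. Of the 20 probes, 6 covered more than 60 bases of the mm9 genome and so lay across a splice junction, which places them in spliced RNA. They are shown because they read the spliced transcript and because 3 of them (the second Ryr1 probe, the Cacna1s probe and the Trdn probe) stood apart from another probe of the same gene. The lines give the array's own sequence, 5′ to 3′, in lower case with no bases singled out.
Ryr1 A_52_P391110: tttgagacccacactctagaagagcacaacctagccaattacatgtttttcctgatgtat
Ryr1 A_51_P416074: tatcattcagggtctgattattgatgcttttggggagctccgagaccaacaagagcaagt
Cacna1s A_52_P598219: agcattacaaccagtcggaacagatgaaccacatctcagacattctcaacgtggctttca
Cacnb1 A_51_P478138: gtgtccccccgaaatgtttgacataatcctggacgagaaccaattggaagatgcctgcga
Trdn A_52_P202322: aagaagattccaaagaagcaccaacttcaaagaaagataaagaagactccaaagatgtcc
Casq1 A_51_P199104: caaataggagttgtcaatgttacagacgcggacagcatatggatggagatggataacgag

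In mm9, the build named in the array files, the first Ryr1 probe lies at chr7:29788789-29789487 (minus strand) and the second at chr7:29789818-29790524 (minus strand), so they are neighbours with 330 bases between them. The Cacna1s probe shown lies at chr1:137995266-137997234 (plus strand), and the brighter Cacna1s probe, A_51_P103541, lies 18.8 kb downstream at chr1:138016020-138016079 (plus strand). The Cacnb1 probe lies at chr11:97866579-97867011 (minus strand), the Trdn probe at chr10:33184400-33187979 (plus strand) and the Casq1 probe at chr1:174140602-174142105 (minus strand). No gene model of mm9 was used here, so exon numbers and the border of coding and untranslated sequence are not given. All 10 genes were found by symbol in the RefSeq gene table (assembly GRCm38.p6), and for the 11 probes whose gene also had a promoter entry the strand was that of the gene.

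The targeted gene checked the labels. Pknox1 signal, as log2 over the 75th percentile of each array, was -0.09, -0.31, -0.21 and -0.51 in Prep1f/+ replicates 1 to 4 and -1.84, -2.08, -2.28 and -1.96 in Prep1deltaSM replicates 1 to 4. The groups did not overlap, and Prep1deltaSM muscles held 29.5% of the control signal (log2 difference -1.76 ± 0.13 SE, limma adjusted p = 0.0072); whether the probe lies in the deleted stretch was not settled. It was the 1 gene of 16016 (0.00624%) past an adjusted p of 0.05, and it lost that call with slide as a block (adjusted p = 0.0620) and when control replicate 2 (0.0656), control replicate 3 (0.0641) or Prep1deltaSM replicate 2 (0.0738) was left out. All 10 markers of fast skeletal fibres were tested (list median -0.09, 3 higher and 7 lower), and Myh4, the fastest myosin heavy chain, was at 11.28 ± 0.19 (SD, n = 4) in controls, so the defining markers of the labelled tissue were present. Muscle is a mixture of cells, and in such bulk RNA fewer cells of a type and less RNA per cell cannot be told apart.

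None of the 10 triad genes passed an adjusted p of 0.05 in limma; the smallest was 0.163. At an unadjusted p under 0.05, Casq1 and Fkbp1a had higher signal in Prep1deltaSM muscle (2 of 10, against 5.54% of all genes higher) and no member had lower signal (against 10.3% of all genes lower). In Fkbp1a alone, 1 of 10 members, the groups did not overlap, with Prep1deltaSM higher (against 3.72% of all genes higher and 6.74% lower). The median difference of the 10 was 0.03 on the log2 scale and that of all 16016 genes was -0.07. Of the members, 7 had a positive and 3 a negative difference, against 37.3% positive over all genes, and the 7 became 9 with quantile normalization and 5 with median centring. Without 1 array the members' median lay between 0.02 and 0.13; it reached 0.13 without Prep1f/+ replicate 3 or Prep1deltaSM replicate 4 and 0.11 without Prep1deltaSM replicate 2, and was 0.02 without Prep1deltaSM replicate 3 or without control replicate 1 or 4.

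**Figure D1:**
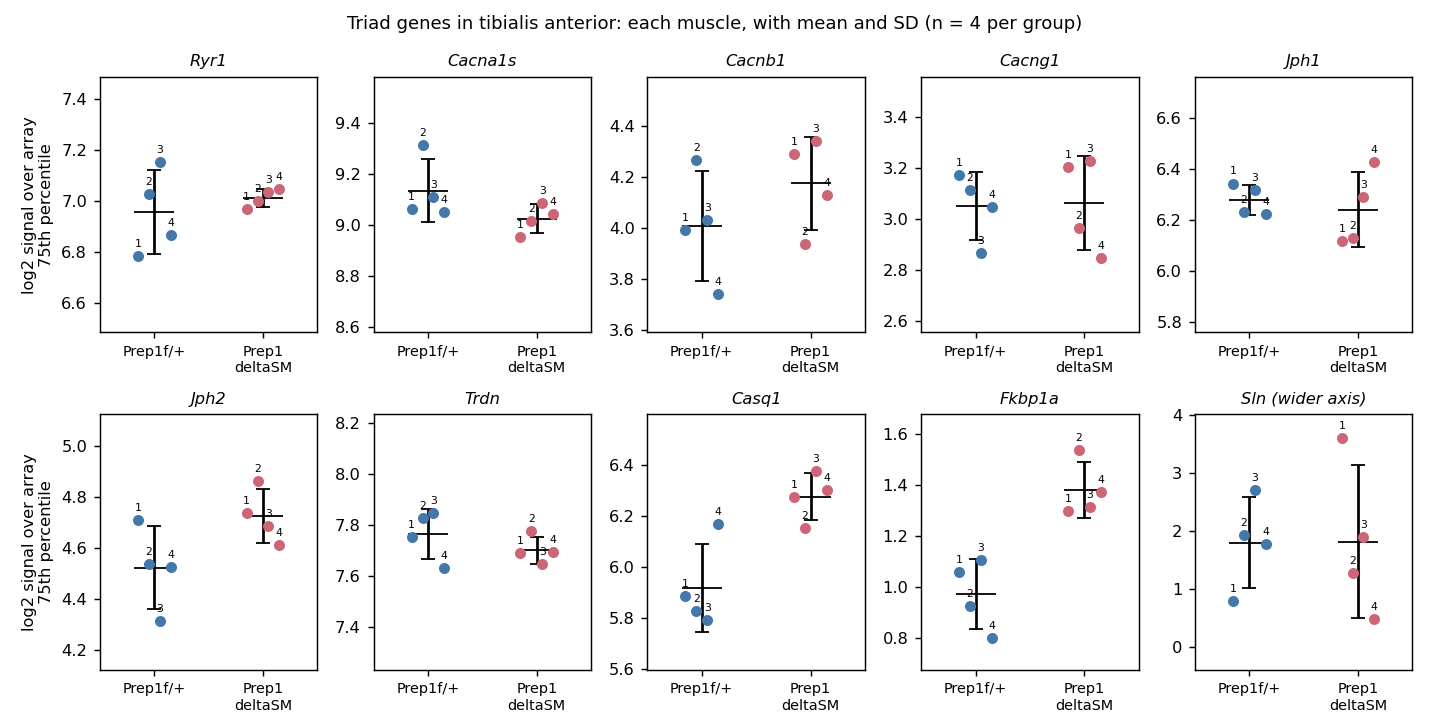
Signal of each of the 10 triad genes in every muscle (log2 over the 75th percentile of the array, brightest probe of the gene); points are mice with their replicate number, bars are the group mean and SD (n = 4), and the axis spans the same width in every panel except the wider one of Sln. Fkbp1a is the panel in which all Prep1deltaSM muscles sit above all controls, and Sln runs from 0.50 to 3.61.

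Casq1, the calcium buffer that fills the terminal sacs of fast fibres, read 5.89, 5.82, 5.79 and 6.17 in Prep1f/+ replicates 1 to 4. In Prep1deltaSM replicates 1 to 4 it read 6.27, 6.15, 6.37 and 6.30. Control replicate 4 was the high one of its group and just passed the lowest Prep1deltaSM muscle, replicate 2, so the groups overlapped at that pair alone. The difference was 0.36 ± 0.11 SE (95% interval 0.11 to 0.60, a fold of 1.28), with limma p = 0.00924 and an adjusted p of 0.204; the exact two-sided permutation test over 70 assignments gave 0.0571, where the smallest possible value is 0.0286. The Prep1deltaSM array was the higher on all 4 slides, each of which carried 1 array of each genotype, by 0.20 to 0.45. Casq1 has a single probe, so no second stretch of the transcript could be set beside it.

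Fkbp1a encodes FKBP12, which is made by most cell types and in muscle is a partner of the release channel. Its probe read 1.06, 0.92, 1.11 and 0.80 in Prep1f/+ replicates 1 to 4 and 1.30, 1.54, 1.31 and 1.37 in Prep1deltaSM replicates 1 to 4. Every Prep1deltaSM muscle was above every control, with replicate 2 the highest. The difference was 0.41 ± 0.10 SE (95% interval 0.18 to 0.64, a fold of 1.33), with limma p = 0.00321, an adjusted p of 0.163 and an exact permutation p of 0.0286, the smallest that 70 assignments allow. It was higher by 0.31 to 0.51 on all 4 slides. The second Fkbp1a probe, A_52_P416810, was well above background on 0 arrays and gave no comparison. The related Fkbp1b, which encodes FKBP12.6 and pairs chiefly with the cardiac release channel, had a difference of 0.04 (95% interval -0.21 to 0.30).

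Some smooth muscle and endothelial markers had differences of the same direction and size. Of 4 smooth muscle markers, Acta2 (smooth muscle actin) and Myh11 (smooth muscle myosin) each differed by 0.44 with no overlap of groups. Over all genes, 3.72% were higher without overlap. The other 2 smooth muscle markers were negative, Tagln at -0.23 and Cnn1 at -0.04. Of 4 endothelial markers, Tek, an angiopoietin receptor, differed by 0.39 and Pecam1 by 0.31. The other 2 were negative, Cdh5 at -0.22 and Kdr at -0.05. The mean of the centred smooth muscle list ran from -0.24 to 0.08 in controls and from -0.05 to 0.33 in Prep1deltaSM muscles, and that of the endothelial list from -0.29 to 0.35 and from -0.08 to 0.19, so both overlapped. Their part in the Casq1 and Fkbp1a values was not tested.

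The release channel gave 3 values from 3 probes. Ryr1 A_52_P391110, the brightest, read 6.79, 7.03, 7.15 and 6.86 in Prep1f/+ replicates 1 to 4 and 6.97, 6.999, 7.03 and 7.05 in Prep1deltaSM replicates 1 to 4. The Prep1deltaSM muscles lay within the range of the controls, and the difference was 0.05 ± 0.10 SE (adjusted p = 0.808 in limma). That difference depended on the processing. It was -0.0029 without Prep1f/+ replicate 1 and 0.16 with quantile normalization. After normexp background correction it was 0.18 (limma unadjusted p = 0.040, adjusted p = 0.295). Ryr1 A_51_P416074, 330 bases away, read 6.18, 6.32, 6.41 and 6.20 in controls and 6.49, 6.54, 6.57 and 6.54 in Prep1deltaSM muscles. Here all Prep1deltaSM muscles were above all controls, by a mean of 0.26 (limma adjusted p = 0.184 over 24488 probes). The log ratio of the second probe to the first within an array was higher by 0.20 in Prep1deltaSM muscle without overlap (exact permutation p = 0.0286). Of all such probe pairs on the array, 16.1% did not overlap. The third probe, A_51_P256401, was designed on the clone AK042482 and lies 17.1 kb upstream along the gene at chr7:29807633-29807692 (minus strand). Its 60 bases are unbroken in the genome, it was dim (77 to 155 signal units over the arrays), and it differed by -0.44 with a 95% interval of -1.10 to 0.22.

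The probes of the voltage sensor differed too. Cacna1s A_51_P103541 read 9.06, 9.32, 9.11 and 9.05 in Prep1f/+ replicates 1 to 4 and 8.95, 9.02, 9.09 and 9.05 in Prep1deltaSM replicates 1 to 4. The groups overlapped, with control replicate 2 the highest array, and the difference was -0.11 ± 0.09 SE (adjusted p = 0.560). Cacna1s A_52_P598219, the junction probe printed above, read 1.41, 1.94, 1.93 and 1.86 in controls and 2.28, 2.47, 2.29 and 2.11 in Prep1deltaSM muscles. All Prep1deltaSM muscles were above all controls, of which replicate 1 was far below the others; the difference was 0.50 (95% interval 0.18 to 0.82, limma adjusted p = 0.147) and 0.38 without that array. Within arrays, the log ratio of this probe to the brighter one was higher by 0.61 in Prep1deltaSM muscle, with no overlap (exact permutation p = 0.0286). That was so in 16.1% of all such probe pairs, in either direction. The design lists these probes under different transcript records, NM_001081023 for the brighter and NM_014193 for the dimmer, and the files do not say which transcript forms each one reads.

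The auxiliary subunits of the channel had 1 probe each. Cacnb1, the beta subunit that carries the channel to the triad, read 3.99, 4.27, 4.03 and 3.74 in controls and 4.29, 3.94, 4.34 and 4.13 in Prep1deltaSM muscles. The groups overlapped widely, and the difference was 0.17 ± 0.14 SE; it was 0.08 without control replicate 4 and 0.25 without control replicate 2. Cacng1, the gamma subunit, read 3.17, 3.11, 2.87 and 3.05 in controls and 3.20, 2.97, 3.23 and 2.85 in Prep1deltaSM muscles. The groups spanned almost the same range; the difference was 0.01, with a 95% interval of -0.26 to 0.28, and -0.01 with median centring.

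The junctophilins, the tethers of the triad, each had a bright and a dim probe. Jph1 A_52_P489232 read 6.34, 6.23, 6.32 and 6.23 in controls and 6.12, 6.13, 6.29 and 6.43 in Prep1deltaSM muscles, a difference of -0.04 (95% interval -0.25 to 0.18) that was 0.02 with quantile normalization. Jph1 A_51_P351523, 2.3 kb away, read 2.34, 2.54, 2.44 and 2.49 in controls and 2.83, 2.74, 2.68 and 2.71 in Prep1deltaSM muscles. At that second probe the groups did not overlap and the difference was 0.29 ± 0.08 SE (limma adjusted p = 0.150). It was the 1 probe of these genes that passed an adjusted p of 0.05 in any alternative that tested it (0.0475 after normexp background correction). The authors' own values of this probe were left out, as they departed from the quantile-normalized ones by up to 3.07 log2. The within-array ratio of the Jph1 probes overlapped between groups (difference 0.33, exact permutation p = 0.0571).

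Jph2, the junctophilin shared with heart, was higher on average at both of its probes. A_52_P142143 read 4.71, 4.54, 4.31 and 4.52 in controls and 4.74, 4.86, 4.68 and 4.61 in Prep1deltaSM muscles, and A_51_P218653 read 2.07, 2.25, 1.73 and 1.78 in controls and 2.37, 2.40, 2.23 and 2.34 in Prep1deltaSM muscles. Control replicate 1 reached into the Prep1deltaSM range at the first probe and control replicate 2 at the second. The differences were 0.20 (95% interval -0.04 to 0.44, adjusted p = 0.385) and 0.38 (adjusted p = 0.191). Without Prep1f/+ replicate 3, the lowest array at both probes, they were 0.13 and 0.31. At the first probe the difference was 0.26 after normexp background correction, 0.28 with quantile normalization and 0.30 without Prep1f/+ replicates 1 and 4. Its unadjusted limma p was under 0.05 in each of those settings, and its lowest adjusted p in any alternative was 0.235.

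Triadin was the steadiest of the genes, with a range over the 8 muscles of 0.22 at its brightest probe, A_51_P249608. That probe read 7.75, 7.82, 7.85 and 7.63 in controls and 7.69, 7.77, 7.65 and 7.69 in Prep1deltaSM muscles, a difference of -0.06 ± 0.08 SE that was 0.03 with quantile normalization. The Prep1deltaSM values lay within the control range. A_52_P268563 and A_52_P771589 differed by -0.07 and 0.00. A_52_P202322, the junction probe printed above, read 3.06, 3.14, 3.08 and 2.89 in controls and 2.73, 2.72, 2.60 and 2.89 in Prep1deltaSM muscles. Control replicate 4 (2.889) and Prep1deltaSM replicate 4 (2.886) were apart by less than the rounding of the deposited signals to 3 digits, so these groups met there, and the difference was -0.31 ± 0.10 SE (limma adjusted p = 0.174). Its log ratio to the brightest probe differed by -0.25 between genotypes and that to A_52_P771589, 8.0 kb away, by -0.31. Both were without overlap (exact permutation p = 0.0286), as were 16.1% of all such probe pairs on the array. Trdn is known to be spliced into several forms of different length, and the 4 probes are spread over 337 kb of the gene.

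Over the 18 tested probes, 6 were higher in Prep1deltaSM muscle at an unadjusted p under 0.05 (against 9.66% of all 24488 probes) and 1 was lower (against 8.09%). Probes of 1 gene may read the same transcript and cannot be taken as independent of each other. In 5 genes with several tested probes, 12 within-array pairs were compared between genotypes, and 4 pairs did not overlap, in either direction: 1 in Ryr1, 1 in Cacna1s and 2 in Trdn. Over all 12058 such pairs of the array 16.1% did not overlap, so probes that differ in this way were common, and both Trdn pairs share a probe. No probe passed an adjusted p of 0.05; the smallest was 0.121.

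**Figure D2:**
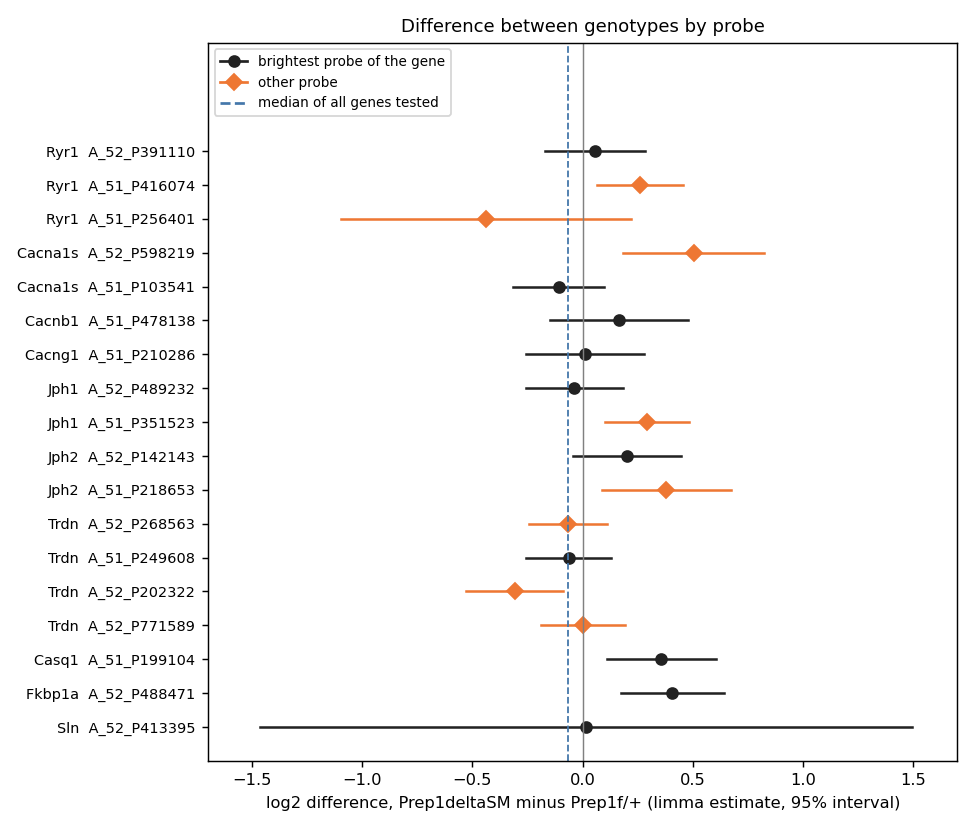
Difference between genotypes at each of the 18 tested probes (log2, limma estimate with its 95% interval). Circles are the brightest probe of a gene and diamonds are other probes. The dashed line is the median of all genes at their brightest probe (-0.07), whereas the median of all 24488 tested probes was -0.02. The dimmer probes of Cacna1s (0.50) and Jph1 (0.29) lie to the right of brighter probes near 0, and 1 of the 4 Trdn probes lies to the left (-0.31).

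Sarcolipin varied more between mice than all other members. Sln, which in mouse is known from atria and from slow or immature muscle, read 0.80, 1.93, 2.71 and 1.78 in Prep1f/+ replicates 1 to 4 and 3.61, 1.28, 1.91 and 0.50 in Prep1deltaSM replicates 1 to 4. The highest and the lowest muscle were both Prep1deltaSM. The range of 3.11 log2 units was wider than in 99.0% of the genes tested, where the median range was 0.63, while the other 9 members ranged over 0.22 to 0.74. The difference between genotypes was 0.02 with a 95% interval of -1.48 to 1.51, so the interval covers folds from 0.359 to 2.85. It was -0.58 without Prep1deltaSM replicate 1, -0.32 without Prep1f/+ replicate 1, 0.46 without Prep1deltaSM replicate 4 and 0.32 without Prep1f/+ replicate 3. The second Sln probe, A_51_P297498, was well above background on 0 arrays.

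By the root mean square difference of mean-centred log2 values over the 8 arrays, the profiles nearest to Sln among 16015 other genes were those of Pkp3 (0.35), Sfrp4 (0.36) and Myh3 (0.43), against 0.94 for Sln about its own mean. Pkp3 encodes a plakophilin of desmosomes, Sfrp4 a secreted Wnt antagonist and Myh3 the embryonic myosin heavy chain. All 4 were highest in Prep1deltaSM replicate 1. Sln, Sfrp4 and Myh3 were lowest in Prep1deltaSM replicate 4, and Pkp3 was lowest in Prep1f/+ replicate 1. Slow fibre markers did not share the order: their list mean was highest in Prep1f/+ replicate 3 (0.95) and lowest in Prep1deltaSM replicate 2 (-0.70), and it was -0.13 in Prep1deltaSM replicate 1. Of 6 heart markers, 5 were tested and the atrial light chain Myl7 was well above background on 0 arrays. Myl4, of the same list, was well above background on 8 arrays. It was highest in Prep1deltaSM replicate 1 (1.83) and lowest in Prep1deltaSM replicate 4 (0.53), as Sln was. The other tested heart markers were all highest in a control. Myh6 and Tnni3 were highest in Prep1f/+ replicate 3, Nppa in Prep1f/+ replicate 4 and Nppb in Prep1f/+ replicate 1. The heart list mean was highest in Prep1f/+ replicate 3 (0.40) and lowest in Prep1deltaSM replicate 2 (-0.28).

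**Figure D3:**
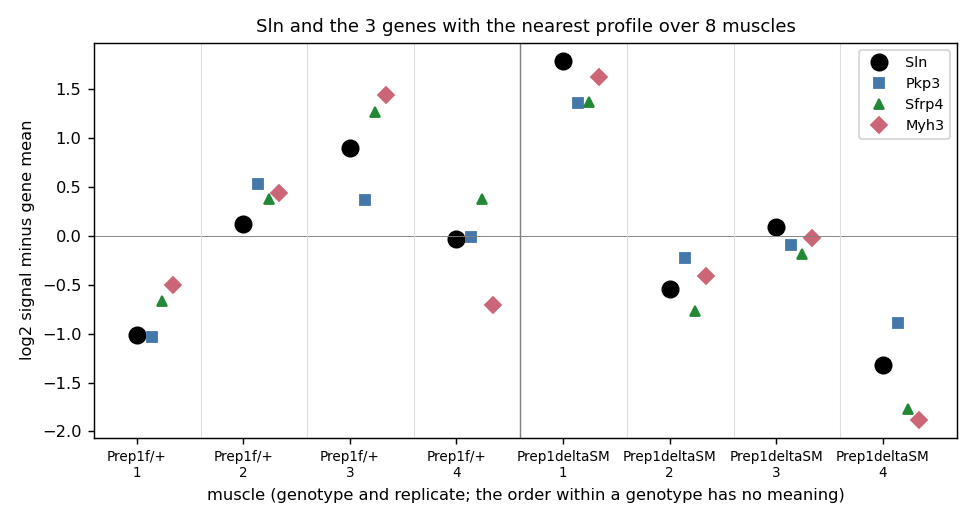
Sln and the 3 genes with the nearest profile in each muscle (log2 signal minus the mean of the gene over the 8 arrays; 1 symbol per gene, muscles side by side by genotype and replicate). All 4 genes peak in Prep1deltaSM replicate 1, where Sln is 1.79 above its mean.

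The other proteins of the triad and transverse tubule were read from a list of 22 genes, all tested. Their median difference was 0.03, with 13 positive and 9 negative values (37.3% of all genes were positive). At an unadjusted p under 0.05, 3 were higher and 1 was lower, against 5.54% and 10.3% of all genes, and none passed an adjusted p of 0.05. Sypl2, which encodes the triad protein mitsugumin 29, read 3.11, 2.96, 3.08 and 3.13 in controls and 3.66, 3.55, 3.69 and 3.25 in Prep1deltaSM muscles. Those groups did not overlap (difference 0.46 ± 0.11 SE, limma adjusted p = 0.162), whereas a second, dimmer Sypl2 probe differed by 0.13. Tmem38b, the intracellular cation channel TRIC-B, read -0.88, -1.07, -1.29 and -1.08 in controls and -0.50, -0.66, -0.65 and -0.67 in Prep1deltaSM muscles. Its groups did not overlap either (0.46 ± 0.10 SE, limma adjusted p = 0.146), and the related TRIC-A, Tmem38a, differed by -0.15 with overlap. The Homer scaffolds split: Homer2 differed by 0.32 (adjusted p = 0.298) at its brightest probe and by 0.20 and -0.64 at its others, and Homer3 by -0.56 (adjusted p = 0.180). Stac3, the adaptor that the voltage sensor needs in order to reach the surface and couple, differed by -0.08, and the tubule proteins Bin1 and Cav3 by -0.05 and -0.04.

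Genes of calcium storage and removal were read from a second list, of which 26 were on the array and 25 were tested. Their median was -0.06, with 8 positive and 17 negative values, near the 62.7% of all genes that were negative. At an unadjusted p under 0.05, 5 were lower and 0 higher, against 10.3% and 5.54% of all genes, and none passed an adjusted p of 0.05. Calr, the calreticulin of the endoplasmic reticulum, read 3.76, 3.80, 3.77 and 3.90 in controls and 3.49, 3.39, 3.58 and 3.65 in Prep1deltaSM muscles. That was a difference of -0.28 without overlap (limma adjusted p = 0.217), and a dimmer Calr probe differed by 0.05. The others, all with overlap, were the myoregulin gene (listed as 2310015B20Rik, -0.26), the calcineurin subunit Ppp3ca (-0.24), and the calmodulin kinase genes Camk2d (-0.29) and Camk2b (-0.30), whose dimmer probes had positive differences. The calcium pump of fast fibres, Atp2a1, differed by 0.05 (95% interval -0.19 to 0.29) and the cytosolic buffer Pvalb by -0.02 (-0.22 to 0.17).

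**Figure D4:**
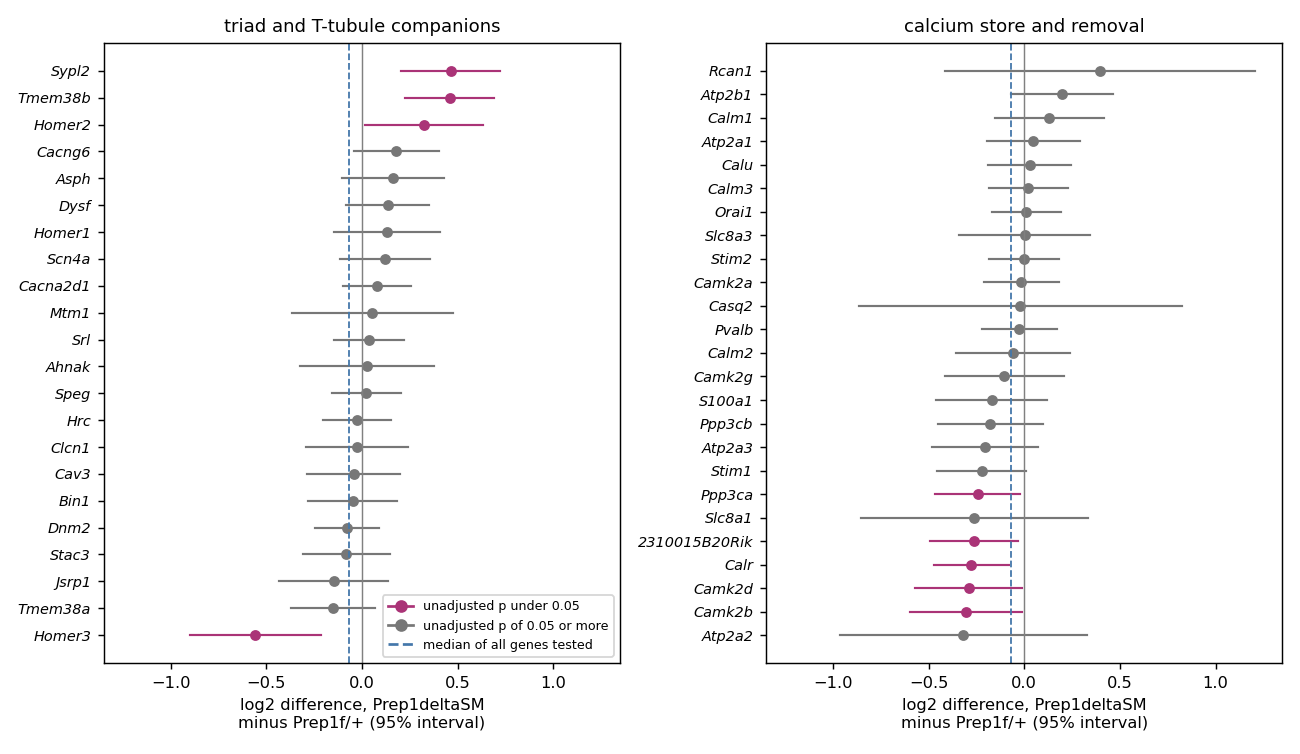
Differences between genotypes for the tested genes of the triad list (left) and of the calcium storage and removal list (right), as log2 Prep1deltaSM minus Prep1f/+ with 95% limma intervals; coloured genes had an unadjusted p under 0.05, and the dashed line is the median of all genes. The coloured genes are mostly to the right of 0 in the triad list and all to the left in the other.

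Of 18 genes closely related to the members, 9 were tested and none had an unadjusted p under 0.05. The cardiac release channel Ryr2 was well above background on 0 of 8 arrays at each of its 3 probes, the pump inhibitor phospholamban (Pln) on 3, and the calcium channel genes Cacna1d and Cacnb2 on at most 0 and 1. Casq2, the calsequestrin of slow fibres and heart, differed by -0.02 with a 95% interval of -0.86 to 0.82. It ranged over 1.52 log2 units between muscles, against 0.58 for Casq1.

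Markers of slow fibres, fibroblasts, tendon, adipocytes and leukocytes had mostly negative differences, none past an adjusted p of 0.05, where 62.7% of all genes were negative; the smooth muscle and endothelial lists had positive medians (0.20 and 0.13). All 10 slow fibre markers had negative differences (median -0.42; list means of -0.25 to 0.95 in controls and -0.70 to 0.27 in Prep1deltaSM muscles), 1 of them at an unadjusted p under 0.05. Fibroblast markers were lower in 7 of 8 (median -0.42, list means -0.19 to 0.36 and -0.65 to 0.36), tendon markers in 6 of 6 (-0.57; -0.09 to 0.46 and -0.995 to 0.35), adipocyte markers in 5 of 5 tested (-1.03; -0.54 to 1.19 and -2.16 to 1.11) and leukocyte markers in 6 of 6 (-0.47; -0.04 to 0.61 and -0.79 to 0.07). At an unadjusted p under 0.05, 4 fibroblast, 1 tendon, 0 adipocyte and 3 leukocyte markers were lower, against 10.3% of all genes. Prep1deltaSM replicates 2 and 4 had the lowest fibroblast, tendon, adipocyte and leukocyte means. The part of these cell types in the triad values was not tested. Without both of those arrays, which were chosen after seeing the data and come from 1 group, Casq1 differed by 0.41, Fkbp1a by 0.33 and the median of the 10 genes was 0.18.

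Promoter sequence was given for 6 of the 10 genes in the RefSeq table (GRCm38.p6): Ryr1, Cacna1s, Cacnb1, Jph2, Casq1 and Fkbp1a. The windows run from 250 bases before to 50 bases after each start, and both strands were searched. The letters TGACAG, bound by MEIS and PREP proteins, were found in 1 of the 6, Cacna1s, against 21.6% of all genes in the table. The letters TGATTGAC, which PBC proteins bind with a partner and which share 4 letters with the first motif where they overlap, were found in 0 of 6, against 0.892%. The E-box of myogenic factors, CANNTG, was found in 5 of 6, against 74.99%. The Cacna1s match is shown because it is the only one for the ablated factor's core in the windows of the 6 genes searched. Capitals mark it, and it begins 126 bases before the start. The bases are the 250 before the start in the window chr1:136052561-136052860 (GRCm38.p6, plus strand). No binding was measured in this study, and a match of letters is a description only.
Cacna1s upstream: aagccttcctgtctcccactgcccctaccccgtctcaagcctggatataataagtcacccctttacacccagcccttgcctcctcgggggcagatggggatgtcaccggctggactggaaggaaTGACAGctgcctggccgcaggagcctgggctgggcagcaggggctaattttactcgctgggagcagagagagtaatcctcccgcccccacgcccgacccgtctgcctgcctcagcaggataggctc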

How the data were processed

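Total RNA of 8 tibialis anterior muscles was read on Agilent 60-base oligonucleotide arrays. The deposited intensity of each spot was, per the file headers, background-subtracted and spatially detrended by Feature Extraction 10.5.1.1 (protocol GE1_107_Sep09) and given to 3 significant digits; the submitters' processing notes name Feature Extraction 9.1. A second table from the authors holds processed intensity in 32812 rows, which its values show to be linear and quantile-normalized; 26226 rows matched a probe (quantile-normalized, to 0.1 log2 on each array) and served as an alternative.

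Here, each array's 75th percentile was subtracted from log2 intensity. Non-uniform spots (0 to 11 per array) were set missing, no spot was saturated, and spots of a probe were averaged. Well-above-background spots numbered 23787 to 27123 of 43379 per array; precision is limited by the 8 arrays. Probes well above background on at least 4 arrays (24488 of 41174) were kept, and a gene took its brightest probe. Groups were compared with limma 3.58.1 in R 4.3.3 (lmFit and eBayes, Benjamini-Hochberg adjustment over all 16016 genes or 24488 probes) and, for single values, by exact two-sided permutation. The p-values measure the spread between mice. The fit was tested on simulated data.

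All 10 members are named with every probe. From the related gene lists, genes with an unadjusted p under 0.05 were named, up to 6 per list, others being named for their role; likeness was taken for the member with the widest range. Members and lists were chosen with earlier results of these data known. Alternatives were other background corrections, scalings, filters, probe rules, variance models, slide as a block, array weights, and arrays left out.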

Additional observations from a re-analysis of the deposited data

Results flagged for a closer look

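Of 80 sets of 4 values examined (members, probes, named genes and marker lists in each genotype), 4 held a value far from the other 3 by Dixon's ratio, the gap to the nearest value over the whole range, and chance alone would give about 4. At the Cacna1s probe A_52_P598219, Prep1f/+ replicate 1 was the low array (ratio 0.839). In Tmem38b, Prep1deltaSM replicate 1 was the high array (0.902). The fibroblast list mean was lowest in Prep1f/+ replicate 1 among the controls (0.944), and the tendon list mean was lowest in Prep1f/+ replicate 3 (0.893).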

How the results depend on the processing

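The labels carry no replicate numbers that pair mice. Each slide held 1 array of each genotype, and slide as a block paired them on that basis; it left Casq1 and Fkbp1a as the members with an unadjusted p under 0.05. None of the 10 genes passed an adjusted p of 0.05 in any of the 23 alternatives that tested it. In these, 2 to 7 had an unadjusted p under 0.05. There were 4 after normexp correction (Casq1, Fkbp1a, Jph2 and Ryr1), and 7 when probes were fitted singly, which tests more of them. Jph2 was also among them with quantile normalization, the mean of probes or array weights. The same held without Prep1f/+ replicate 1 and without Prep1f/+ replicates 1 and 4. The authors' values tested only 7 of the 10 genes, without Ryr1, Jph1 and Jph2. Rows of Jph1 A_51_P351523, Trdn A_52_P202322, Jph2 A_52_P142143 and Ryr1 A_51_P416074 there were left out. They departed from the quantile-normalized values by up to 3.07, 1.31, 0.80 and 0.40 log2. Casq1 (0.31 to 0.47) and Fkbp1a (0.33 to 0.45) had an unadjusted p under 0.05 in all 23, with lowest adjusted p of 0.0958 and 0.0549. The members' median was 0.13 with normexp, 0.12 with quantile normalization, 0.15 with the mean of probes, 0.10 with array weights, -0.0029 without Prep1f/+ replicates 1 and 4, 0.18 without Prep1deltaSM replicates 2 and 4 (chosen after seeing the data) and 0.016 to 0.13 without 1 array.

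Pknox1 kept its direction, at -0.89 with normexp and -1.84 to -1.68 without 1 array, but passed no adjusted p of 0.05 with the slide block (-1.76), without Prep1f/+ replicates 1 and 4 (-1.78) or without Prep1deltaSM replicates 2 and 4 (-1.78). Signs turned for the following values, and the cause was not tested. With the mean of probes, Ryr1 was -0.042, Cacna1s 0.20, Jph1 0.13 and, among named genes with an unadjusted p under 0.05 at their brightest probe, Homer2 was -0.037 and Camk2d 0.10. With normexp, Jph1 was 0.042, Trdn 0.041 and its probe A_52_P268563 0.0014. With quantile normalization, Jph1 was 0.025, Trdn 0.033 and A_52_P268563 0.035. With median centring, Cacng1 was -0.0057, Sln -0.00084 and Trdn A_52_P771589 -0.014, and that probe was -0.015 with array weights. In the authors' values Cacna1s was 0.0053 and Trdn 0.043. Without Prep1f/+ replicates 1 and 4, Ryr1 was -0.078, its probe A_51_P256401 0.11, Sln -0.50 and A_52_P771589 -0.034. Without Prep1deltaSM replicates 2 and 4, A_52_P771589 was -0.012. Without 1 array, Ryr1 ran from -0.0029 to 0.12, Cacng1 from -0.050 to 0.081, Jph1 from -0.0998 to 0.0032, Sln from -0.58 to 0.46 and A_52_P771589 from -0.046 to 0.030. Setting population outlier spots missing (chosen after seeing the data) turned no sign. With 4 muscles a group, differences smaller than the intervals given could not be resolved.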
